A study of Mus musculus with 6 samples.

Results

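The myelin-high and myelin-low barcodes are the upper and lower sets of cell barcodes in panel 2 of replicates 2 and 3, separated by their share of Ugt8a and Bcas1 molecules. There were 64 myelin-high and 66 myelin-low barcodes, 130 in all, of 1858 barcodes in the series. The sets were chosen by the measured values themselves. For each barcode, the unique molecular identifiers (UMIs, counted molecules) of Ugt8a and Bcas1 were divided by its total UMIs, and barcodes above the median of their own library were called high. The levels of Ugt8a and Bcas1 therefore describe the split and are not results of it.

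Both libraries came from mouse hypothalamus of strain C57/Bl6 with genotype KLB-CRE; Ai14, and all barcodes share that background, so there is no control genotype. The labels give no treatment and no age. In this cross the Klb promoter drives Cre, Klb (beta-klotho) being needed for cells to sense FGF21, and Ai14 is a Cre-dependent tdTomato reporter that stays on in the descendants of a cell that recombined it. Each of 3 captures pooled 3 hypothalami, and cells sorted for tdTomato and Hoechst viability were read with 2 targeted BD Rhapsody primer panels. The capture is the replicate, so the comparison has n = 2 captures, and barcodes of 1 capture are not replicates of each other.

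Myelin is the lipid-rich membrane that oligodendrocytes wrap around axons. Ugt8a makes galactosylceramide, a major myelin lipid; Bcas1 is a protein of oligodendrocytes that are starting to myelinate; Ermn (ermin) is a cytoskeletal protein of mature oligodendrocytes; and Mbp (myelin basic protein) compacts the membrane sheets. Precursor cells carry the proteoglycan Cspg4 instead, and the kinase Fyn acts as the precursors differentiate. SOX transcription factors, Sox10 and Sox8 among them, act in this lineage.

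The promoters of Ugt8a, a gene of the split, and Ermn, the marker left for comparison in both captures, are shown because both genes were highest in the same barcode of replicate 2. Each run is the 250 bases before the transcription start, on the minus strand, from RefSeq for build GRCm38.p6. For Ugt8a it lies at chr3:125938653-125938902 and for Ermn at chr2:58052865-58053114. The SOX core motifs ACAAAG and ACAATG were searched on both strands, where they do not overlap each other, and matches are in capitals.
Ugt8a: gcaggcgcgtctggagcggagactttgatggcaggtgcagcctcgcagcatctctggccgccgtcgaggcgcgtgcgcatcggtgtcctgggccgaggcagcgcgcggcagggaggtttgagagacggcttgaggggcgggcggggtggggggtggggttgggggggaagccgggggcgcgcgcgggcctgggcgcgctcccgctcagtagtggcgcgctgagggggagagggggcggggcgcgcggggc
Ermn: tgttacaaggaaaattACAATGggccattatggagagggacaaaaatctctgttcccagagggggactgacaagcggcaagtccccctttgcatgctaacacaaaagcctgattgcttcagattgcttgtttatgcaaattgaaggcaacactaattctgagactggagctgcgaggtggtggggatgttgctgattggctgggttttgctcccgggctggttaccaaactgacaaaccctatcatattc
The Ermn window held 1 match and the Ugt8a window held 0. Among 32851 promoter windows of the same length, 25.2% held at least 1 match, so a match is common and is given as a description only.

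Replicate 2 gave 43 barcodes with 79560 UMIs and replicate 3 gave 87 barcodes with 109452 UMIs, and they shared 0 cell indices. The libraries differed in what they detected. Of 265 genes in replicate 2 and 266 in replicate 3, 93 and 120 had a UMI, 80 of them in both. There were 7 genes with at least 50 UMIs in replicate 2 and 0 in replicate 3, and 19 genes with the reverse. Mbp was measured only in replicate 3. Klb had 0 UMIs in both libraries, which allows up to 6.98% and 3.45% of barcodes with a UMI at this depth, while tdTomato RNA was found in 41 of 43 and 86 of 87 barcodes. No doublets were called. In the replicate 2 table, 21 barcodes that also stood in a table of replicate 3 were left out by the rule. All 87 of replicate 3 also stand in the table labelled panel 1 of that replicate, whose header names the panel 2 run. Which label of that table is right could not be settled, and the exclusion in replicate 2 uses the same table.

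Most barcodes of both captures lay close to the median that divided them, and 4 barcodes per capture lay far above it. In replicate 2 the share of Ugt8a and Bcas1 ran from 5.00 to 16.2 per 1000 UMIs in the 22 low barcodes, with a median of 13.1. In the 21 high barcodes it ran from 16.4 to 169, with a median of 20.1. In replicate 3 the 44 low barcodes ran from 3.71 to 10.2 with a median of 8.42, and the 43 high barcodes from 10.3 to 97.5. The barcodes next to the dividing value were at 16.4 above and 16.2 below in replicate 2, and at 10.3 above and 10.2 below in replicate 3. Within 10% of the median there were 12 of 43 and 25 of 87 barcodes, and 31 of 43 and 81 of 87 lay within 2 counting standard errors of it. The sets are parts of a range of scores, and the division at the median does not define cell types.

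The 4 barcodes per capture with more than 2 times the median score were chosen after the values were seen. In replicate 2 they had scores of 169, 129, 128 and 115 per 1000 and held 741, 11434, 2788 and 3231 UMIs, 22.9% of the library. Every other barcode of that capture was at or below 23.0. In replicate 3 their scores were 97.5, 46.0, 31.2 and 26.9 with 4924, 3066, 4589 and 1116 UMIs, 12.5% of the library, and every other barcode was at or below 17.8. Of these 8 barcodes, 6 had at least 2788 UMIs, while the one with the highest score in replicate 2 had fewer than most. Their median was 3010 UMIs against 1335 for the other 39 in replicate 2, and 3828 against 1033 for the other 83 in replicate 3; the part of depth in their scores was not tested. Over all barcodes the variance of the score was 111 times (replicate 2) and 29.9 times (replicate 3) that of counting error. Without the 4 it was 2.27 and 0.774 times. The scores of the other 83 barcodes of replicate 3 thus spread no more than counting error gives. The whole sets had like depth, with median UMIs of 1352 high and 1406 low in replicate 2 and 1016 high and 1111 low in replicate 3.

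**Figure D1:**
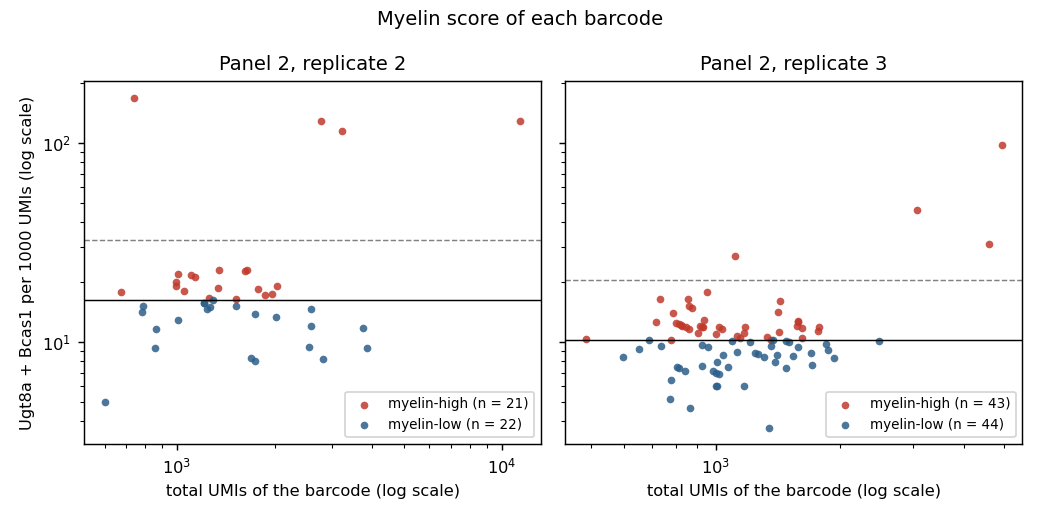
Ugt8a plus Bcas1 UMIs per 1000 (log scale) against the total UMIs of each barcode (log scale), with 1 panel per capture; red points are myelin-high and blue points myelin-low barcodes, the solid line is the median and the dashed line 2 times the median. In each capture 4 red points stand above the dashed line and the other barcodes form 1 continuous band across the median.

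The genes of the split entered differently in the 2 captures. Bcas1 made up 57.0% of the score UMIs in replicate 2 and 96.3% in replicate 3, where Ugt8a gave only 65 UMIs in 26 barcodes. Summed Ugt8a was 29.5 per 1000 UMIs in the high and 4.29 in the low set of replicate 2, and 1.03 and 0.13 in replicate 3. Summed Bcas1 was 37.3 and 7.58 in replicate 2, and 22.3 and 8.18 in replicate 3. Every one of the 130 barcodes held a Bcas1 UMI.

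The levels of each gene of the split under a division by the other are given as a description. When barcodes were divided by Ugt8a alone, Bcas1 per 1000 was higher in the upper set by 2.13 (replicate 2) and 1.34 (replicate 3) on the log2 scale. In replicate 3 this division, here and below, set the 26 barcodes with a Ugt8a UMI against the 61 without. Without the 8 barcodes the Bcas1 difference was 0.39 (95% counting interval 0.14 to 0.64) and 0.01 (-0.20 to 0.22). When barcodes were divided by Bcas1 alone, Ugt8a differed by 2.55 and 1.74 on the log2 scale. Without the 8 that difference was 0.56 (0.26 to 0.87) and 0.15 (-1.10 to 1.53). The barcodes left out were picked by the sum of the same 2 genes, so nothing is read from the smaller differences. All intervals here cover counting error only.

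Ermn, which the split did not use, had a higher summed level in the high set of both captures, and a single barcode per capture held about 52% of its UMIs. In replicate 2 it was at 14.4 per 1000 UMIs in the high set and 4.74 in the low set (598 and 180 UMIs). In replicate 3 it was at 1.08 and 0.57 (61 and 30 UMIs). Per barcode, the high set of replicate 2 ran from 2.80 to 35.6 with a median of 6.46, and the low set from 3.47 to 7.44 with a median of 4.89. In replicate 3 both medians were 0, with highest values of 15.3 in the high and 3.35 in the low set. The ranges of the sets overlapped in both captures. Across captures the log2 difference of the sums was 1.58 and 0.82, a mean of 1.20 ± 0.54 (SD, n = 2 captures), and it did not pass edgeR's quasi-likelihood test (log2 1.33, adjusted p = 0.113).

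The Ermn UMIs were concentrated in 1 barcode per capture. The 11434-UMI barcode of replicate 2 held 407 of 778 Ermn UMIs (52.3%), and the 3066-UMI barcode of replicate 3 held 47 of 91 (51.6%). Without the 4 highest-score barcodes of each capture the log2 difference was 0.38 (0.06 to 0.71) in replicate 2 and turned to -0.90 (-2.29 to -0.10) in replicate 3. In replicate 2 the barcode medians were then 6.34 high and 4.89 low. The barcodes left out were picked after the values were seen and by the genes of the split, so the change is a description only. With every barcode thinned to 500 UMIs the Ermn difference was 0.47 and 0.06. In the thinned barcodes Ermn was detected in 100% of the high and 95.5% of the low barcodes of replicate 2, and in 16.7% and 20.5% in replicate 3. Before thinning these shares were 100% and 100% in replicate 2, and 32.6% and 47.7% in replicate 3. None of the barcodes of replicate 2 and 1 high barcode of replicate 3 were too shallow to thin.

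Mbp was also higher in sum in the high set of the capture that measured it. In replicate 3 it stood at 86.5 per 1000 UMIs in the high set and 56.5 in the low set (4885 and 2993 UMIs), a log2 difference of 0.61 with a counting interval of 0.55 to 0.68. Per barcode the high set ran from 30.0 to 276 with a median of 41.6, and the low set from 28.0 to 401 with a median of 38.8. The barcode medians lay close together, and the highest Mbp barcode of all belonged to the low set. The 3 deepest high-score barcodes had 229, 232 and 276 per 1000, and the fourth had 74.4. Without those 4 the summed Mbp was 41.3 in the high and 56.5 in the low set, a log2 difference of -0.45 (-0.54 to -0.37). That turn rested on the highest Mbp barcode, which held 995 of the 2993 UMIs of the low set. Without it as well, the low set was at 39.6 and the log2 difference was 0.06 (-0.03 to 0.15); without it alone, the difference was 1.12 (1.05 to 1.20). These values were chosen after seeing the data.

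The 401-per-1000 barcode in the low set had a score near the median. It held 2483 UMIs, 995 of them Mbp, and its score of 10.1 ranked 47th of 87. Mbp UMIs are in the total that the score divides by, so Mbp itself lowers a barcode's score. With Mbp out of the total the score of this barcode would be higher, and its place in the low set may rest on this. The barcode had 0 Ugt8a UMIs, 25 Bcas1 UMIs and 2 Ermn UMIs. It also had the highest Gfap level of the capture, 21.3 per 1000, Gfap being the intermediate filament of astrocytes. Because only 1 capture measured Mbp, it has no replicate and no test.

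**Figure D2:**
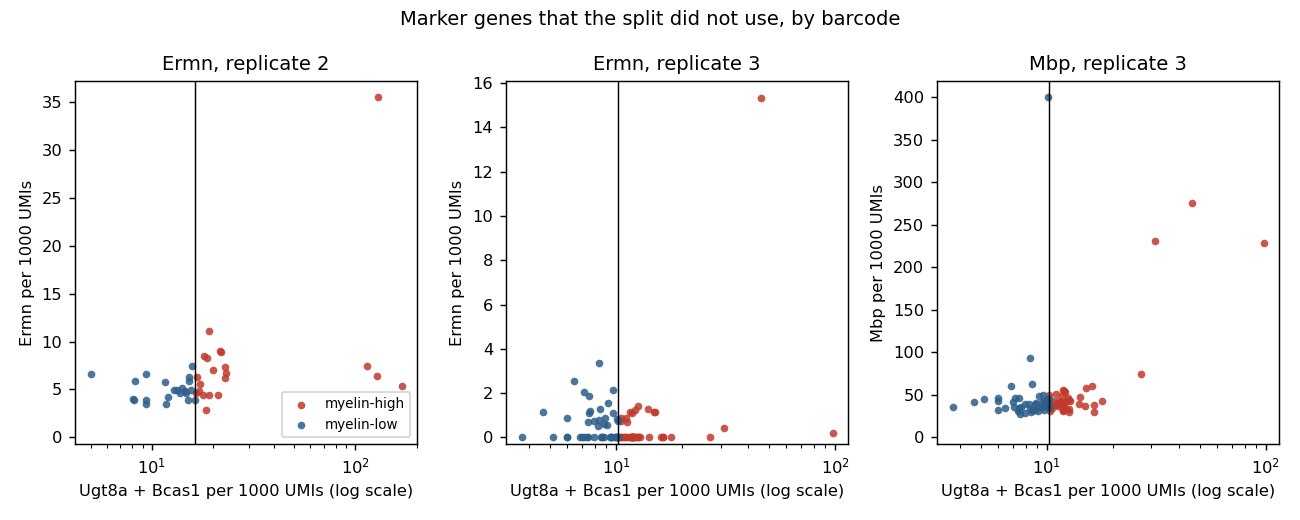
Ermn in replicates 2 and 3 and Mbp in replicate 3, in UMIs per 1000 of each barcode, against Ugt8a plus Bcas1 per 1000 (log scale); red points are myelin-high, blue points myelin-low, and the line is the median. A single barcode per capture stands out for Ermn, and the Mbp panel shows 3 high-score barcodes between 229 and 276 and 1 low barcode at 401.

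In each capture 1 of the highest-score barcodes stood above all others for Ermn, and none did for Mbp. Most barcodes of the sets overlapped in both markers, so the sets are named by their rule and given no cell type name. The highest-score barcodes were also unlike each other. The 11434-UMI barcode of replicate 2 had 81.8 Ugt8a, 46.9 Bcas1 and 35.6 Ermn per 1000 UMIs. The other 3 had more Bcas1, from 99.4 to 154, but Ugt8a from 12.2 to 15.2 and Ermn from 5.40 to 7.43. In replicate 3, Bcas1 was highest (90.4) in the 4924-UMI barcode, which also had the highest Ugt8a (7.11) but 1 Ermn UMI. The 3066-UMI barcode had the Ermn and only 1 Ugt8a UMI.

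Further genes were concentrated in the 11434-UMI barcode of replicate 2. Fgfr2, an FGF receptor, had 712 UMIs in replicate 2 and 508 of them (71.3%) in that barcode, at 44.4 per 1000 against a median of 2.56 in the barcodes outside the 4. Summed Fgfr2 was 15.1 in the high and 2.26 in the low set, a log2 difference of 2.68, and 0.47 (0.02 to 0.95) without the 4. In replicate 3 it had 1 UMI in all, which allows no comparison. Nr4a1, an early-response nuclear receptor, had 597 of 1147 UMIs (52.0%) there. Sox8, a SOX factor chosen after its values were seen, had 138 of 308 UMIs in the same barcode and 0 UMIs in replicate 3.

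Among the 70 genes with at least 10 UMIs in each library, Ugt8a and Bcas1 left out, none passed the test. edgeR's quasi-likelihood test on the summed UMIs of each set, with the capture as a block, called 0% of genes higher and 0% lower at an adjusted p under 0.05. At an unadjusted p under 0.05 there were 6 higher and 3 lower, and DESeq2 called 0, with 5 at an unadjusted p under 0.05. The lowest adjusted p by edgeR was 0.113. In sign alone, 26 genes (37.1%) were higher in the myelin-high set of both captures, 19 (27.1%) were lower in both, and 25 had opposite signs. With UMIs of all genes but Ugt8a and Bcas1 as the denominator the counts were 31, 18 and 21. The median log2 difference over the 70 genes was 0.12 in replicate 2 and 0.01 in replicate 3. An exact sign-flip test over 2 captures cannot go below 0.5, so no p is given for single genes by that route. The genes below are given by their values, as none was called.

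**Figure D3:**
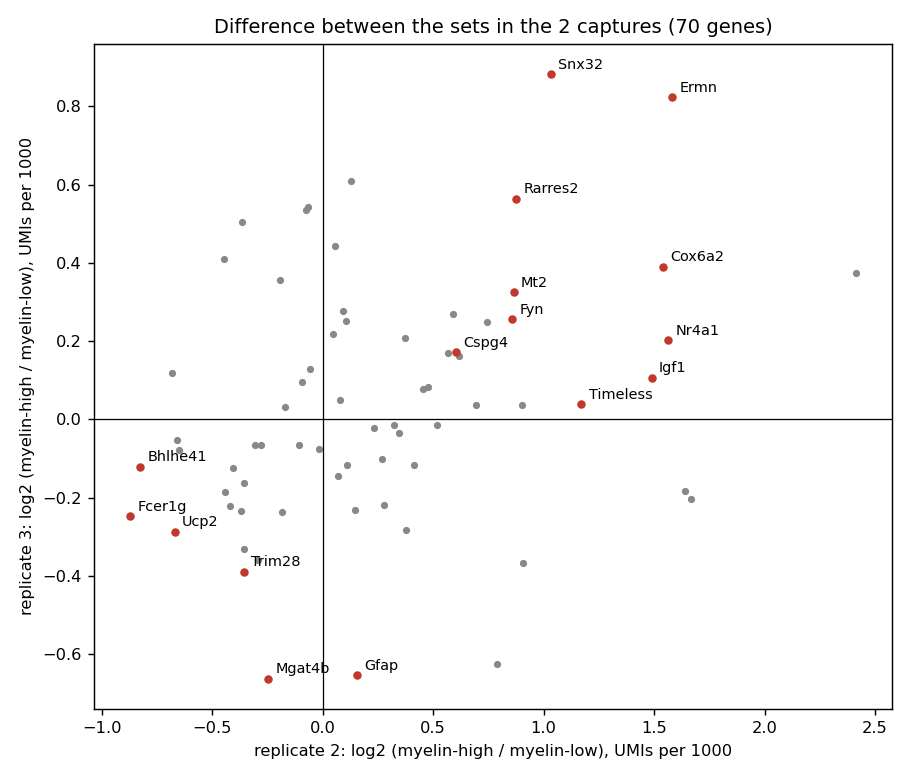
Log2 difference between myelin-high and myelin-low sums of UMIs per 1000 (0.1 added) in replicate 2 (horizontal) and replicate 3 (vertical), 1 point per gene, 70 genes, with some of those named in the text in red and labelled. Differences were wider in replicate 2, and 26 genes lie in the upper right, 19 in the lower left and 25 in the other quadrants.

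The precursor genes Cspg4 and Fyn, the 2 of their list in the panel, were both higher in sum in the high set of both captures. Fyn was at 4.23 and 2.29 per 1000 UMIs in the high and low sets of replicate 2, and at 8.99 and 7.52 in replicate 3. Its mean log2 difference was 0.56 ± 0.43 (SD, n = 2; edgeR adjusted p = 0.681). Cspg4 was at 6.76 and 4.42 in replicate 2 and at 9.31 and 8.25 in replicate 3, and its barcode ranges overlapped in both. Without the 8 highest-score barcodes both kept their sign, with Fyn at 1.05 and 0.18 and Cspg4 at 0.37 and 0.17 on the log2 scale. In replicate 3 Cspg4 turned to -0.24 with barcodes thinned to 500 UMIs, to -0.11 when they were divided by Bcas1 alone, and to -0.05 between the highest-score and lowest-score barcodes with the middle left out.

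Mt2, a metallothionein that binds zinc and copper, was higher in sum in the high set of both captures. It was at 22.8 per 1000 UMIs in the high and 12.5 in the low set of replicate 2, and at 1.75 and 1.38 in replicate 3. The mean log2 difference was 0.59 ± 0.38 (SD, n = 2; edgeR adjusted p = 0.317). Without the 8 highest-score barcodes it was 1.13 and 0.29, and Mt2 was then the only gene edgeR called (adjusted p = 0.0184). Mt2 was also edgeR's only call without the deepest barcode of each library (adjusted p = 0.00552). Both settings were chosen after the values were seen, and the 8 barcodes were picked by the score that made the sets. No conclusion is drawn from these calls. In replicate 2, 298 of 1421 Mt2 UMIs were in 1 high barcode of 2041 UMIs, at 146 per 1000. Its barcode medians were 16.7 high and 12.1 low in replicate 2, but 1.27 high and 1.32 low in replicate 3. With barcodes divided by Bcas1 alone the Mt2 difference turned to -0.30 in replicate 2 and was 0.08 in replicate 3.

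Snx32, Cox6a2, Timeless and Igf1 were also among the 10 highest by mean difference. Snx32, a sorting nexin, had the most even difference, 1.03 and 0.88 on the log2 scale (mean 0.96 ± 0.11 SD, n = 2; edgeR adjusted p = 0.514). Its sums were 2.04 high and 0.95 low per 1000 in replicate 2, and 2.94 and 1.55 in replicate 3. A single high barcode held 19.0% of its UMIs in replicate 2 and 23.4% in replicate 3, neither among the 8, and its barcode medians in replicate 3 were 1.27 high and 1.28 low. With barcodes divided by Ugt8a alone Snx32 was at 0.09 and -0.65. Cox6a2, a subunit of cytochrome c oxidase, was at 7.63 high and 2.55 low in replicate 2 and at 2.78 and 2.10 in replicate 3 (edgeR adjusted p = 0.389), and its replicate 3 difference turned to -0.46 on the log2 scale under the same division. Of its replicate 2 UMIs 19.6% were in 1 high barcode, and after thinning to 500 UMIs it was detected in 19 of 21 high and 12 of 22 low barcodes there (21 and 20 before), and in 26 of 42 and 25 of 44 in replicate 3 (40 and 40 before). Timeless, a gene of the replication fork and clock, had a log2 difference of 1.17 in replicate 2, where the same 2041-UMI barcode held 241 of 743 UMIs, and 0.04 in replicate 3; divided by Bcas1 alone these were -0.56 and -0.01. Igf1, a growth factor, had 1.49 and 0.11, and the replicate 3 value turned to -0.15 without the 8 barcodes.

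Rarres2, the chemerin gene and the only ependymal marker compared, was higher in sum in both captures. It was at 4.28 high and 2.29 low per 1000 UMIs in replicate 2 and at 11.04 and 7.44 in replicate 3, a mean log2 difference of 0.72 ± 0.22 (SD, n = 2; edgeR adjusted p = 0.389). Its barcode medians were 3.29 and 2.32 in replicate 2, and 7.70 and 7.44 in replicate 3. In replicate 3 a high barcode of 1328 UMIs held 14.4% of it, at 111 per 1000. Divided by Bcas1 alone, Rarres2 was at 0.71 and -0.25 on the log2 scale. Nr4a1 was at 21.1 high and 7.08 low in replicate 2 and at 1.56 and 1.34 in replicate 3 (edgeR log2 0.98, adjusted p = 0.113). Without the 8 barcodes its log2 differences shrank from 1.56 and 0.20 to 0.21 and 0.13.

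**Figure D4:**
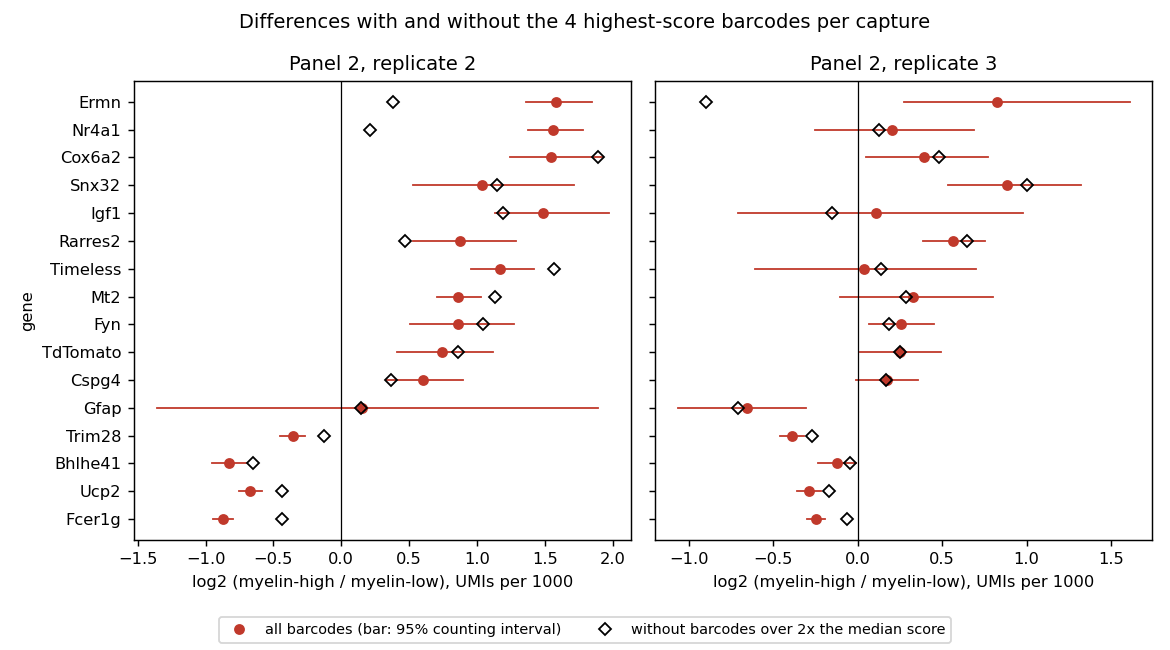
Log2 difference between myelin-high and myelin-low sums of UMIs per 1000 (0.1 added) for 16 genes in each capture; red circles are all barcodes with 95% counting intervals, and open diamonds leave out the 4 barcodes per capture over 2 times the median score. Ermn moved from 1.58 to 0.38 in replicate 2 and from 0.82 to -0.90 in replicate 3, while Mt2, Snx32 and Cox6a2 stayed above 0.

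Fcer1g, the Fc receptor gamma chain of myeloid cells and the only myeloid marker in the panel, was lower in the high set of both captures. It was at 59.8 per 1000 UMIs high and 109 low in replicate 2, and at 90.7 and 108 in replicate 3. Per barcode it ran from 27.5 to 135 (median 71.2) in the high and from 32.6 to 197 (median 105) in the low set of replicate 2. In replicate 3 the high set ran from 26.8 to 201 (median 100.3) and the low set from 32.6 to 241 (median 110). It was thus found in every barcode, and the sets overlapped. The mean log2 difference was -0.56 ± 0.44 (SD, n = 2; edgeR adjusted p = 0.317), and without the 8 barcodes it was -0.44 and -0.06. The 4 high-score barcodes of replicate 2 had 27.5 to 42.0 per 1000, all below the median of 100.3 in the others. In replicate 3, 3 of the 4 lay below the median of 107 in the others and 1 was at 149.

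Ucp2, a mitochondrial carrier, and Bhlhe41, a repressor of the clock, were also lower in both captures. Ucp2 was at 47.0 high and 74.8 low per 1000 UMIs in replicate 2 and at 53.0 and 64.8 in replicate 3 (mean log2 -0.48 ± 0.27 SD, n = 2; edgeR adjusted p = 0.317). Bhlhe41 was at 19.9 high and 35.3 low in replicate 2 and at 22.2 and 24.1 in replicate 3 (mean log2 -0.47 ± 0.50 SD, n = 2; adjusted p = 0.317 by edgeR). Fcer1g, Ucp2 and Bhlhe41 were the 3 lower genes with an unadjusted p under 0.05. Trim28, a corepressor of retroelements, was at -0.36 and -0.39 on the log2 scale (edgeR adjusted p = 0.514), but its replicate 2 difference turned to 0.15 without the 5% of barcodes with most UMIs and to 0.04 when barcodes were thinned to 500 UMIs. The rest of the 10 lowest, Mgat4b, Man1a, Nes, Prim2, Gm13498 and Pou2f2, had mean log2 differences from -0.45 to -0.32. Mgat4b turned to 0.03 in replicate 2 without the 8 barcodes and to 0.28 there with barcodes thinned to 500 UMIs. In the same capture Gm13498 turned to 0.27 when thinned and to 0.08 without the 5% of barcodes with most UMIs. Prim2 turned to 0.18 in replicate 2 when barcodes were divided by Bcas1 alone.

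The levels of these abundant genes and of the score are shares of the same UMIs. The part of this in the lower Fcer1g and Ucp2 was not tested. With Ugt8a and Bcas1 out of the denominator Fcer1g was at -0.79 and -0.22 and Ucp2 at -0.59 and -0.27 on the log2 scale. Without Mbp in score and denominator, Fcer1g was at -0.22 and Ucp2 at -0.28 in replicate 3.

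Early-response genes did not share a direction. Fos was higher in the high set by 0.57 and 0.17 on the log2 scale, while Btg2, an antiproliferative early gene, was at -0.19 and -0.24, or 0.05 and -0.04 without the 8 barcodes. Of the 5 in the panel, 3 were compared, 2 higher and 1 lower in both captures, with a median mean log2 difference of 0.37 beside 0.09 for all 70 genes. Of the clock genes, Timeless (1.17 and 0.04), Bhlhe40 (0.59 and 0.27) and Per2 (0.08 and 0.05) were above 0 in both captures. Bhlhe41 was lower, and the median of the 4 was 0.25. In replicate 2 Bhlhe40 had only 18 UMIs and Per2 only 39. The tdTomato reporter was at 4.69 high and 2.76 low per 1000 UMIs in replicate 2 and at 5.79 and 4.85 in replicate 3 (mean log2 0.50 ± 0.35 SD, n = 2; edgeR adjusted p = 0.729). Fgfr1 had 160 UMIs in replicate 3, with a log2 difference of 0.08, and 0 in replicate 2.

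Markers of other cell types were few, and none of those compared was called. Of the 7 genes of the neuronal list in the panel only Gad2, which makes GABA, had UMIs, 151 in replicate 3 (log2 0.40, counting interval -0.06 to 0.92) and 0 in replicate 2. The list does not hold every gene of neurons in the panel. Pdyn (217 UMIs) and Gria2 (84 UMIs), outside it, were found in replicate 3. Gfap had opposite signs, 0.16 (16 UMIs) in replicate 2 and -0.65 (248 UMIs) in replicate 3. The replicate 3 difference turned to 0.55 without Mbp in score and denominator, and to 0.47 with barcodes divided by Bcas1 alone. With barcodes divided by Ugt8a alone it was -0.44. In replicate 3, 21.4% of the Gfap UMIs were in the Mbp-rich low barcode described above. Nes, a tanycyte and progenitor filament, was lower by -0.66 and -0.05, with 41.1% of its replicate 2 UMIs in 1 low barcode, and its replicate 2 difference turned positive when barcodes were divided by Bcas1 alone. The vessel glucose transporter Slc2a1 was at 0.37 and 0.21, smooth muscle Acta2 at -0.20 and 0.36, and Anxa2, of the fibroblast list, at 0.13 and 0.61. The part of other cell types in the differences was not tested.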

How the data were processed

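The authors deposited raw UMI counts for every barcode and amplicon. Per the file headers the Rhapsody pipeline was version 1.5 in both libraries, and per the submitters' processing notes the build was mm9; the aligner and the calling of cells: not given in the sources used here. Amplicons of a gene were summed. UMIs were summed per set and library and divided by total UMIs; 0.1 per 1000 was added before log2 ratios. Genes with at least 10 UMIs in each library were tested with edgeR 4.0.16 (quasi-likelihood, capture as block, no TMM factor), with Benjamini-Hochberg adjusted p-values, and as an alternative with DESeq2 1.42.0, under R 4.3.3; the script was tested on simulated data. Intervals are exact (Clopper-Pearson, 95%) and cover counting error only. The members and gene lists were chosen with earlier results of these data known. Named genes were the markers, list members with at least 10 UMIs in each library, and, with at least 50 UMIs in each library and the same sign in both, the 10 highest and 10 lowest by mean log2 difference. Alternatives changed the scaling, filter, score, division of the barcodes, depth and block. The pairing comes from the design, since both sets of a capture are barcodes of 1 library. Results that rest on certain genes are not reported here, and the oligodendrocyte list is given without a count.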

Additional observations from a re-analysis of the deposited data

How the results depend on the processing

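Calls were few under every setting run. The count of genes called higher, 0 in the fit as reported, was 1 without the barcodes over 2 times the median score and 1 without the deepest barcode of each library (Mt2 in both), 2 with no filter on low counts (Fgfr2 among them) and 1 with edgeR's own filter (Fgfr2). With no replicate block it was 0, and the lowest adjusted p rose to 0.996. No setting called a gene lower. Leaving out a capture leaves no residual degrees of freedom, so that test has no value. The count of genes higher in both captures was 16 when barcodes were thinned to 500 UMIs, and 20 to 33 in the other settings, against 26. The count lower in both ran from 14 to 24, against 19. Under a split on Ugt8a alone 22 genes were higher and 24 lower in both, and without Mbp in score and denominator 33 were higher and 17 lower. Of 30 named genes, 26 kept the sign of the mean log2 difference under a split on Ugt8a alone, 26 on Bcas1 alone, 27 without the deepest 5% of barcodes, and 28 to 30 elsewhere. The settings without the 2-fold barcodes, the deepest barcode or Mbp were chosen after seeing the data. The causes of these shifts were not tested. Counts of the markers were low in replicate 3, with 91 UMIs of Ermn and 65 of Ugt8a, or 0.83 and 0.59 per 1000 UMIs against 9.78 and 17.5 in replicate 2.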

Other observations

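The same division at the median was made in the libraries of replicate 1, which the comparison did not use; this was chosen after seeing the data. Only barcodes with at least 20 UMIs and 5 genes were kept in these libraries. Panel 1 of replicate 1, read with pipeline version 1.3, then had 950 barcodes, 156 of them over 2 times the median score. Their medians were 52 UMIs in the high and 49 in the low set, so a score there rests on few molecules. Ermn was at 3.63 per 1000 UMIs in the high and 1.67 in the low set of that library, with 154 and 106 UMIs. This is a log2 difference of 1.07 (95% counting interval 0.75 to 1.49). Fcer1g was lower in the high set there too, by -0.34 (-0.45 to -0.22) on the log2 scale. Markers of other cell types were lower by like amounts, among them Fn1 at -0.36, Slco1a4 at -0.32 and Gja1 at -0.27. Gfap at 0.66 and Gad1 at 1.19 were higher. Among the 10 genes lowest in replicates 2 and 3, Gm13498 was at -0.50 (-0.76 to -0.26) and Trim28 at 0.09 (-0.01 to 0.20). The share of all genes lower in that library was not counted, so nothing is read from these values. Bcas1, a gene of the split, took 110 per 1000 UMIs in the high and 27.5 in the low set of panel 1. Several genes went the other way than in replicates 2 and 3. Mt2 was at -0.44 (-0.53 to -0.35), Nr4a1 at -0.35 (-0.47 to -0.23), Slc2a1 at -0.27 (-0.38 to -0.16) and Ucp2 at 0.29 (0.17 to 0.40). Fyn was at -0.24 (-0.55 to 0.05) and Cspg4 at -0.06 (-0.15 to 0.03). Panel 2 of replicate 1 had 44 barcodes and no UMI of Ugt8a or Ermn, so its score was Bcas1 alone. In its high set Fcer1g was at -1.16 (-1.37 to -0.95), Rarres2 at -0.97 (-1.28 to -0.67) and Cspg4 at -0.82 (-1.16 to -0.50), and Ucp2 was at -0.49 (-0.74 to -0.25), unlike in panel 1. Among the 10 lowest genes, Gm13498 was at -1.16 (-2.21 to -0.28) and Trim28 at -0.17 (-0.45 to 0.12) there. Bhlhe41 at 0.82 (0.42 to 1.22) and Prim2 at 0.53 (0.04 to 1.02) were higher. The share over all genes was not counted there either. The intervals cover counting error in 1 library each and no test over captures was made.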
